A study of Mus musculus with 4 samples.

Results

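Gfap-high astrocytes were 79 cells of the mouse brain that passed a gate for astrocytes and carried at least 5 *Gfap* transcript molecules each, counted as unique molecular identifiers (UMIs). They came from 5039 astrocytes by the same gate, among 36876 cell barcodes of 4 single-cell RNA-sequencing libraries. A barcode entered the gate with 1000 to 22005 UMIs, a mitochondrial share of at most 15.8%, and at least 30 UMIs per 10000 over 6 astrocyte genes (*Slc1a2*, *Slc1a3*, *Aldoc*, *Plpp3*, *Gja1* and *Aqp4*). It also had at most 6 UMIs of the endothelial genes *Cldn5*, *Flt1* and *Ly6c1*, under 15 per 10000 of the microglial genes *C1qa*, *C1qb* and *C1qc*, and at most 3 UMIs of the ependymal genes *Ccdc153* and *Tmem212*. The *Gfap* count itself chose the cells, so *Gfap* and the other 14 genes of the rule are described below and were not tested. The remaining 4960 gated cells, called other astrocytes, served for comparison. The mice were male C57BL/6J, either adult (3 to 4 months at the start of the diets, bred in house) or aged (23 to 24 months, from the National Institute on Aging). For 8 weeks all ate AIN-93M in a modified form, which held 1% cellulose and either 0% or 5% inulin, a fermentable fiber. Each combination of age and diet was 1 mouse, so each age and each diet had 2 mice, and age cannot be told apart from the source of the animals. Brains were dissociated whole and passed through removal of myelin, debris, red cells and dead cells, so no cell could be assigned to a brain region. Values by mouse are given throughout in the order adult 0%, adult 5%, aged 0% and aged 5% inulin.

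Astrocytes clear glutamate and GABA from synapses, buffer potassium and water, and supply neurons with lactate and cholesterol. GFAP is an intermediate filament protein of their cytoskeleton, joined by vimentin, synemin and the linker plectin. Its transcript is low in much of the grey matter, higher in fibrous astrocytes of white matter, the glia limitans and the ventricle walls, and higher again in reactive astrocytes, in which gp130 cytokine receptors act on STAT3. The promoters of 3 genes are shown because the results turn on them: *Gfap* defined the cells, *Myoc* differed most between them and other astrocytes, and *Serpina3n* differed with age within them. *Gfap* (ENSMUSG00000020932.14) lies on chromosome 11 from 102887336 to 102900912, on the minus strand. *Myoc* (ENSMUSG00000026697.10), which encodes the secreted glycoprotein myocilin, lies on the plus strand of chromosome 1 from 162639155 to 162649693. *Serpina3n* (ENSMUSG00000021091.8), a secreted serine protease inhibitor, lies on the plus strand of chromosome 12 from 104406729 to 104414329. Each window runs 5′ to 3′ on the strand of the gene, from 250 bases before a RefSeq transcription start to 50 bases after it, in GRCm38.p6. Capitals mark the fixed letters of TTCNNNGAA, a spaced inverted repeat that STAT factors can bind and which reads the same on both strands, or TATAAA, searched on both strands. The windows are chr11:102897151-102897450 for *Gfap*, chr1:162638900-162639199 for *Myoc* and chr12:104406458-104406757 for *Serpina3n*. The *Gfap* start used by RefSeq lies inside the span that GENCODE gives the gene.
*Gfap*: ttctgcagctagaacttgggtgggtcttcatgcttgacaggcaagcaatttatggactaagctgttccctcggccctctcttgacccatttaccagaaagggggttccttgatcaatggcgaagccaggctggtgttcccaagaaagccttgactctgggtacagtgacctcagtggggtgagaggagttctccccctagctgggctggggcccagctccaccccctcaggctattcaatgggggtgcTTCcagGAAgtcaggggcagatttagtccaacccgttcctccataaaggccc
*Myoc*: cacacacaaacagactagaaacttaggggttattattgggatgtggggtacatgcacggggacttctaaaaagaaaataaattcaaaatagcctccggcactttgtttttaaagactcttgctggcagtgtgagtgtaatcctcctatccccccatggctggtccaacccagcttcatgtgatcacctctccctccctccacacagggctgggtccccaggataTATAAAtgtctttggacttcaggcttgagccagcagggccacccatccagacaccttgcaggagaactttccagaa
*Serpina3n*: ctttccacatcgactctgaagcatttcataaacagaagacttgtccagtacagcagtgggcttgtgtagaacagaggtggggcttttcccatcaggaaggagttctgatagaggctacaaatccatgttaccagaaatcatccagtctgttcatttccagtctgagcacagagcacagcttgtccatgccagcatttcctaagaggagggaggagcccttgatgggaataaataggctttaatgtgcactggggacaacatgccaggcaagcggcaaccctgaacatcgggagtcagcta
The *Gfap* window held 1 TTCNNNGAA match, which began at base 249 of 300, and no TATAAA. The *Myoc* window held 1 TATAAA at base 225 and no TTCNNNGAA, and the *Serpina3n* window held neither, which says only that these letters are not in this window. Over all 32544 distinct windows of this length, 8.33% held TTCNNNGAA and 13.6% held TATAAA.

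The libraries totalled 88248117 to 115814810 UMIs. Gfap-high cells were read more deeply than other astrocytes in each mouse, with median UMIs of 11192, 8637.5, 10573 and 9481 against 6814.5, 6642, 6414 and 6203. Their median mitochondrial share was also higher, at 8.90 to 9.87% against 6.52 to 7.09%. A fixed count of 5 *Gfap* UMIs is reached more easily at greater depth, so the counts of called genes in each list below are also given for cells thinned to 2000 UMIs. Of 15 astrocyte markers that the rule did not use, UMIs of all 15 were detected in Gfap-high cells, which for cells gated as astrocytes is a weak check. Their summed level was 115 to 134 per 10000 in Gfap-high cells and 139 to 145 in other astrocytes. In the comparison below 4 of the 15 were called lower (*Gjb6*, *Cldn10*, *Acsbg1* and *Slc39a12*) and 1 higher (*Mlc1*). Over all genes tested there, 8.97% were lower and 4.66% higher. Markers of several other cell types were low: 0.988 to 2.99 per 10000 over 8 microglial genes against 1.73 to 2.47 in other astrocytes, and 0.741 to 1.42 over 6 endothelial genes against 1.11 to 1.26. The 6 ependymal markers outside the rule summed to 1.01 to 2.77 against 1.18 to 1.35. The 7 oligodendrocyte ones summed to 1.42 to 5.61 against 1.79 to 3.4, with *Mog*, *Mag* and *Cldn11* at 0. The 6 neuronal ones summed to 0.809 to 2.47 against 0.621 to 0.778, above other astrocytes without overlap, with *Syt1* at 0. Among them *Meg3* was called higher in the comparison below. The 4 oligodendrocyte precursor markers summed to 0.297 to 0.364 against 0.0545 to 0.18, with *C1ql1* called higher and *Pdgfra* and *Gpr17* at 0. Over 5 choroid plexus genes the sums were 22.5 to 99.3 against 34.5 to 69.8, so the sets overlapped. Mural markers (5 of 6 detected, *Kcnj8* at 0) summed to 0.395 to 13.2 against 1.07 to 2.88, and 4 hemoglobin genes to 0.291 to 18.9 against 0.711 to 1.94, both highest in the aged 5% mouse.

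Single cells stood apart within the set. Scrublet called 2 of the 79 cells doublets (2.53%), both from the aged 5% inulin mouse, against 52 of the other astrocytes (1.05%). The first carried smooth muscle transcripts, with 125 UMIs of *Tagln*, 114 of *Acta2*, 76 of *Myl9* and 37 of *Myh11*, and held 89.2% of all UMIs of the 6 mural markers in the set. The second carried 1365 UMIs of the choroid plexus gene *Ttr*, against a median of 28. A cell of the same mouse that was not called a doublet held 90.8% of the hemoglobin UMIs, with 279 of *Hba-a1*. An adult 0% inulin cell held 112 of the 146 olfactory ensheathing marker UMIs, and another cell of this mouse held 56 oligodendrocyte UMIs. Of the barcode sequences, 192 occurred in more than 1 library, and 2 Gfap-high cells carried such a sequence, with none shared between 2 Gfap-high cells.

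The first question was how large the Gfap-high share of astrocytes was at each age and on each diet. It was 0.851% (12 of 1410 cells; 95% exact Clopper-Pearson interval, 0.441 to 1.48%) in the adult 0% mouse and 1.27% (20 of 1573; 0.778 to 1.96%) in the adult 5% mouse. It was 1.40% (14 of 998; 0.769 to 2.34%) in the aged 0% mouse and 3.12% (33 of 1058; 2.16 to 4.35%) in the aged 5% mouse. Both aged mice lay above both adult mice, with the aged 0% mouse close to the adult 5% mouse and the aged 5% mouse above the intervals of the adult mice. The intervals cover counting error only, not the differences between mice.

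**Figure D1:**
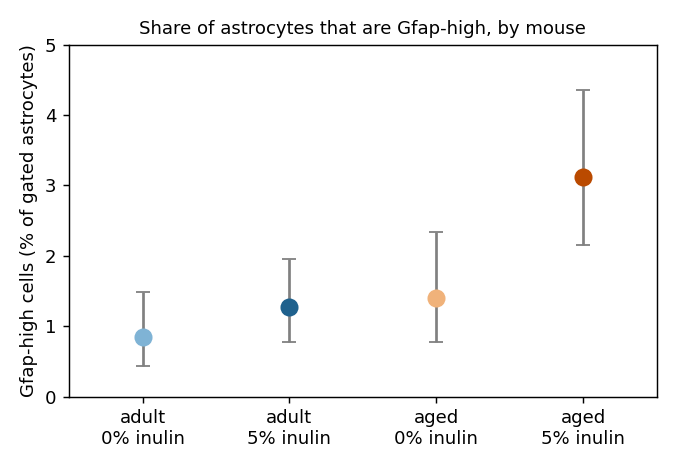
Gfap-high cells as a percentage of gated astrocytes (vertical axis) in each of the 4 mice (horizontal axis), with exact 95% binomial intervals that cover counting error. The aged 5% inulin mouse stood at 3.12%, above the 0.851 to 1.40% of the other three.

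The aged mean was 2.26 ± 1.21% against 1.06 ± 0.297% in adults (SD, n = 2 each), or 1.20 percentage points apart (exact permutation test, two-sided p = 0.333). With 2 mice against 2 the smallest p that this test can give is 0.333, so it cannot pass a threshold of 0.05. The difference fell to 0.342 points without the aged 5% mouse. Between diets the means were 2.20 ± 1.31% with 5% inulin and 1.13 ± 0.390% with 0%, a difference of 1.07 points (exact permutation test, p = 0.667) that was 0.145 points without the aged 5% mouse. As a share of all barcodes within the limits on depth and mitochondrial reads, the difference between ages was 0.138 points and the ages overlapped (exact permutation test, p = 0.667). With this denominator the shares were 0.166, 0.243, 0.227 and 0.457%, and both 5% mice lay above both 0% mice, by 0.153 points in the mean (exact permutation test, p = 0.333, the smallest possible). After thinning to 2000 UMIs the shares were 0.146, 0.400, 0.524 and 0.916%, and with a threshold of 10 *Gfap* UMIs 0.284, 0.509, 0.802 and 1.61%, in the same order of mice.

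Within the set *Gfap* varied widely. The cells held 5 to 211 *Gfap* UMIs with a median of 9, and 1825 in all, which was 61.3% of the *Gfap* UMIs of all gated astrocytes. By mouse this part was 47.5, 58.1, 60.0 and 70.0%. Just inside the threshold were 12 cells with 5 UMIs and 13 with 6, and just outside it were 33 cells with 4 and 58 with 3, so the counts fell off without a gap. Most gated astrocytes had no *Gfap* UMI (4167 cells), and 13.1, 13.8, 17.9 and 21.5% of the other astrocytes had at least 1. Counted by level, 42 cells had 5 to 9 *Gfap* UMIs, 20 had 10 to 29 and 17 had 30 or more. The summed level of *Aqp4*, the water channel of astrocyte end-feet, was 13.2, 17.3 and 25.9 per 10000 over these 3 steps. The level of the glutamate transporter *Slc1a2* was 93.4, 88.4 and 43.8. At the top step *Aqp4* was thus highest and *Slc1a2* lowest.

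*Myoc* split the set in a way that the rule did not use. It was found in 25 of the 79 cells (31.6%), each with 3 to 188 UMIs and a median of 51, and the other 54 cells had none at all. Between 1 and 2 *Myoc* UMIs there was no cell. These 25 cells were spread over the mice as 3, 7, 5 and 10 cells, or 25.0, 35.0, 35.7 and 30.3% of each mouse's Gfap-high cells. They held 72.3% of the *Gfap* UMIs of the set, with a median of 38 *Gfap* UMIs against 7 in the cells without *Myoc*. Among cells with at least 50 *Gfap* UMIs, 11 of 11 carried *Myoc*, against 5 of the 42 cells with 5 to 9. Greater depth did not go with *Myoc*, since the median was 7860 UMIs in cells with it and 10705 in cells without. Among the other astrocytes 11 cells (0.222%) had 3 or more *Myoc* UMIs, of which 9 had a *Gfap* UMI. Gfap-high cells held 1611 *Myoc* UMIs and the other astrocytes 215. After thinning to 2000 UMIs, *Myoc* was found in 28.9% of Gfap-high cells, 0.359% of other astrocytes and 0.229% of microglia, at median depths before thinning of 9853 UMIs in the first and 6676 in the last. Microglia, which should lack the gene, show the level that free RNA can give.

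**Figure D2:**
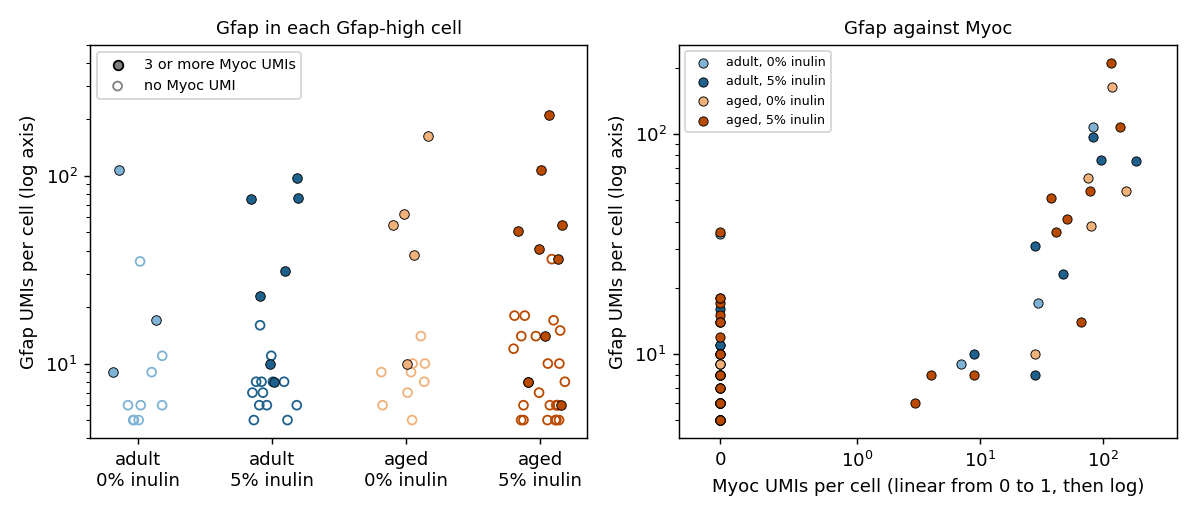
Left, *Gfap* UMIs (log axis) of each of the 79 Gfap-high cells by mouse, filled where the cell had 3 or more *Myoc* UMIs and open where it had none. Right, *Gfap* UMIs (log axis) against *Myoc* UMIs (linear from 0 to 1, then log) of the same cells, in which all 11 cells with 50 or more *Gfap* UMIs carried *Myoc*.

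The subsets below are described from here without a test, since they were chosen after the values were seen. The 25 *Myoc* cells had the highest summed levels of *Gfap* (57.6 per 10000), *Aqp4* (30.3) and *Id3* (23.0), an inhibitor of basic helix-loop-helix factors, where the 48 cells with neither *Myoc* nor *Nkx2-1* had 9.16, 14.4 and 8.79. In each mouse the *Myoc* cells held 50.5 to 69.4 *Gfap* UMIs per 10000 and the cells without *Myoc* 7.27 to 9.39. *Fxyd6*, a regulator of the sodium pump, was at 8.60 in *Myoc* cells and 0.177 in the 48 remaining cells, and *Cidea*, a lipid droplet protein, at 5.11 and 0.0785. *Igfbp5*, which binds insulin-like growth factors, was at 15.1 and 2.26, and the hyaluronan receptor *Cd44* at 1.70 and 0.0981. The amino acid transporters *Slc38a1* (14.4 and 1.47) and *Slc6a6* (6.77 and 0.530) were also at higher levels there. Other transporters were at lower levels. In *Myoc* cells and in the 48 remaining cells they were 44.0 and 107 for *Slc1a2*, 7.03 and 32.1 for the second glutamate transporter *Slc1a3*, and 1.66 and 10.5 for the GABA transporter *Slc6a11*. The gap junction gene *Gjb6* was at 1.92 and 6.08 and the claudin *Cldn10* at 2.10 and 8.56. For *Serpina3n* the order of the subsets differed between mice, with 0.631 and 0.0838 in the adult 5% mouse and 0.677 and 1.94 in the aged 0% mouse.

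A group of 6 cells (2, 1, 1 and 2 by mouse) carried *Nkx2-1*, a homeobox factor of the ventral forebrain and hypothalamus. They had 5 to 10 *Gfap* UMIs each and no *Myoc*. All 46 *Cldn3* UMIs of the set fell in these 6 cells, and so did 75.0% of those of *Ucma* and 86.9% of those of *Cnmd*, both known from cartilage. *Six3*, another homeobox factor of this region, was at 4.05 per 10000 against 0.437 in *Myoc* cells and 0.314 in the 48 remaining cells, and *Six6* was at 1.64 against 0 in both. All astrocyte genes of the rule but *Slc1a3* were lowest here among the subsets, with *Aqp4* at 1.86 and *Slc1a2* at 17.6. *Slc1a3* was at 15.4, between 7.03 in *Myoc* cells and 32.1 in the 48 remaining cells. Outside the rule, *Mlc1* (11.6) and *Sox9* (6.79) were highest in the *Nkx2-1* cells, while *Glul* (5.58), *Gjb6*, *Cldn10* and *S100b* were lowest. *Vim* was at 9.09 there. No cell type name was given to these cells, since no list of markers for them had been fixed. *Agt*, the angiotensinogen gene that marks astrocytes outside the telencephalon, did not set Gfap-high cells apart, as 40 of 79 (50.6%) held 2 or more *Agt* UMIs against 50.1% of other astrocytes. Among the subsets *Agt* was at 7.34 in *Myoc* cells, 12.7 in the 48 remaining cells and 0 in the *Nkx2-1* cells.

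**Figure D3:**
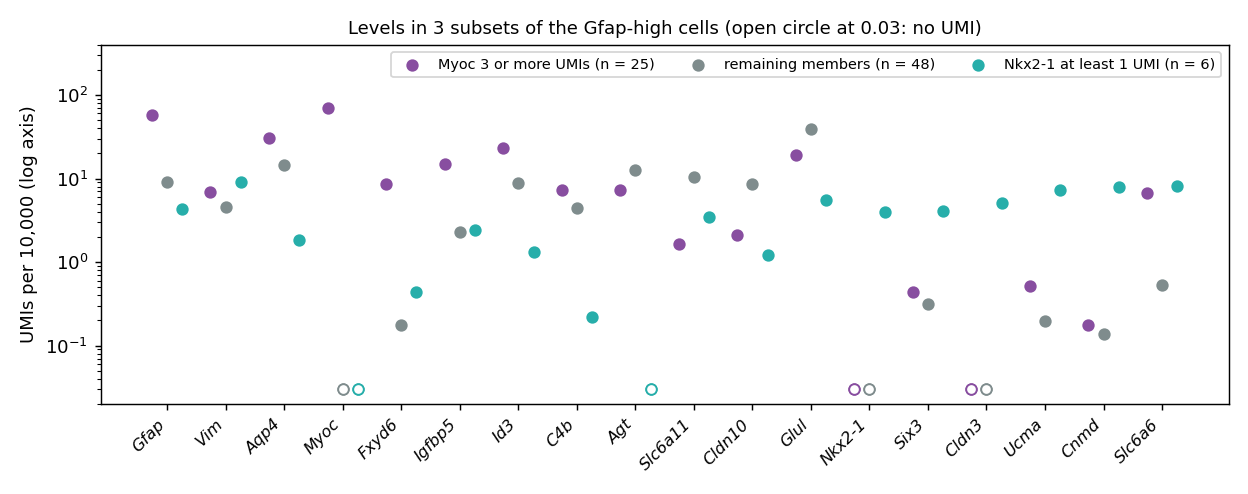
Summed UMIs per 10000 (log axis) of 18 genes in the 25 cells with *Myoc*, the 6 cells with *Nkx2-1* and the 48 remaining Gfap-high cells, with open circles for no UMI. *Gfap*, *Aqp4*, *Fxyd6*, *Igfbp5* and *Id3* were highest in *Myoc* cells, *Slc6a11*, *Cldn10*, *Agt* and *Glul* in the remaining cells, and *Six3*, *Cldn3*, *Ucma* and *Cnmd* in the *Nkx2-1* cells.

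The next question was which genes outside the rule differed between Gfap-high and other astrocytes of the same mouse. UMIs were summed per mouse and set, giving 8 sums, and fitted with mouse as a block (edgeR quasi-likelihood test with Benjamini-Hochberg adjustment). A gene was called where its fold change exceeded 1.5 and its adjusted p was under 0.05. Of 12694 genes tested, 592 were higher in Gfap-high cells (4.66%) and 1139 lower (8.97%), and 1549 of these calls had the same direction in all 4 mice. The median log2 fold change over all tested genes was −0.20, so a value near −0.20 is the middle of all genes. Higher genes were thus the smaller part of the 1731 calls, but 51.8% of them with another scaling of library size in edgeR (RLE; median −0.075), 64.5% in DESeq2 (median −0.108) and 12.7% after thinning each cell to 2000 UMIs (median −0.551). The balance of higher and lower calls thus depended on the scaling. After thinning 9301 genes were tested, so thinned counts below stand against a median of −0.551 and mostly lower calls over all genes. The cells were chosen on *Gfap* in these same libraries, so the p-values only describe how a gene went with *Gfap* in these mice. Genes carried mostly by 1 cell could also be called.

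*Myoc* had the largest difference among called genes with a mean of at least 20 CPM (UMIs scaled to the library total). Its levels were 8.74, 23.8, 30.9 and 16.1 per 10000 in Gfap-high cells and 0.0452, 0.0317, 0.159 and 0.0477 in other astrocytes, a log2 fold change of 8.14 ± 0.15 (SE). Every Gfap-high sum lay above every sum of other astrocytes, with the adult 0% mouse lowest. *Fxyd6* followed the same pattern at 1.09, 2.32, 5.66 and 1.87 against 0.0339 to 0.148, with a log2 fold change of 5.01 ± 0.23 (edgeR adjusted p = 1.80e-98). Of its UMIs in the set 93.8% were in *Myoc* cells, and without those cells its log2 fold change was 1.49 and was no longer called. *Cidea* (log2 fold change 5.72 ± 0.39) and the amino acid transporter *Slc36a2* (6.35 ± 0.57), found in 12 cells that all carried *Myoc*, belonged to the same cells. So did *Ccdc3* (4.26), *Sema3b* (3.98), *Shisa8* (4.01) and the sulfatase *Sulf2* (4.19), with 81.4 to 93.3% of the UMIs there. The semaphorin receptor *Nrp2* (4.26) was shared, with 49.4% of its UMIs in *Myoc* cells and 37.7% in *Nkx2-1* cells. *Cldn3* (4.83), *Ucma* (4.06) and *Cnmd* (4.04) came from the *Nkx2-1* cells. The largest differences were thus those of the small subsets.

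Genes of the filament cytoskeleton were higher in the sums over Gfap-high cells, in part through the small subsets. Besides *Gfap*, 4 of 6 tested genes of intermediate filaments and their linkers were called higher and none lower (*Des*, *Plec*, *Synm* and *Vim*), with a median log2 fold change of 1.88. *Vim* stood at 3.86, 4.84, 4.72 and 7.43 per 10000 against 1.07, 1.22, 1.43 and 1.76 in other astrocytes, with no overlap (log2 fold change 1.84 ± 0.12, edgeR adjusted p = 9.45e-48). The smooth muscle doublet held 18.5% of its UMIs and 14 of the 15 *Des* UMIs. In the 48 cells with neither *Myoc* nor *Nkx2-1*, which include this doublet, *Vim* was at 1.75, 3.94, 2.2 and 6.78. These levels were above those of other astrocytes in each mouse. After thinning, *Vim* was found in 44.7% of Gfap-high cells, 14.2% of other astrocytes and 9.78% of microglia. *Plec* was higher by 2.08 ± 0.20 on the log2 scale (edgeR adjusted p = 6.88e-24). Of its UMIs 66.4% were in *Myoc* cells and 16.1% in *Nkx2-1* cells, and of those of *Synm* 18.5% and 40.7%. With DESeq2 3 of the 6 were called, and after thinning 2 of 4 were higher and 1 lower.

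Of 6 complement genes 5 were called higher, with a median log2 fold change of 1.89 (*C3*, *C4b*, *Cd59a*, *Serping1* and *Clu*). DESeq2 called 3 of them, 2 of 5 tested were called without the *Myoc* cells, and 2 of 3 after thinning. *C4b*, a component of the classical pathway, was at 2.91, 3.16, 6.88 and 5.47 against 0.462, 0.435, 1.07 and 1.02 per 10000. The aged mice were above the adult mice in both sets of cells, and every Gfap-high sum was above every sum of other astrocytes (log2 fold change 2.54 ± 0.13, edgeR adjusted p = 3.42e-80). It was found in 66 of 79 cells and, after thinning, in 48.7% against 11.3% of other astrocytes and 2.99% of microglia. The 17 *C3* UMIs lay in 4 cells, all with *Myoc*. Reads of *C4b*, *Serpina3n* and the interferon-induced genes can be shared with near-identical copies, which makes their exact counts uncertain. *Clu*, which encodes the lipid carrier clusterin, was higher by 0.74 ± 0.12 (edgeR adjusted p = 4.19e-08), and *Apoe* by 0.57, just under the fold threshold.

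Lists of reactive astrocyte genes moved in part. Of 9 general ones, *Serpina3n*, *Cd44*, *S1pr3* and *Cxcl10* were called higher and *Lcn2* lower, with a median log2 fold change of 1.41, and after thinning 3 of 4 were higher. *Serpina3n* was at 0.146, 0.247, 1.42 and 1.61 per 10000 against 0.0708 to 0.0894 in other astrocytes, close to them in the adult mice and far above them in the aged mice (log2 fold change 3.26 ± 0.35, edgeR adjusted p = 2.01e-18). After thinning it was found in 17.1% of Gfap-high cells, 1.46% of other astrocytes and 0.0327% of microglia. Of the 59 *Cxcl10* UMIs, 98.3% were in 1 aged 0% cell. The *Nkx2-1* cells held 83.3% of the 18 *S1pr3* UMIs, and the *Myoc* cells 81.2% of the 48 *Cd44* UMIs. *Lcn2* had 3 UMIs in Gfap-high cells. Of 11 genes of the list known from inflammation (A1) 6 were higher, led by *Gbp2* (2.44 ± 0.54), which became 2 without the aged 0% mouse and 0 of 8 tested after thinning. Of 3 tested genes of the list known from ischemia (A2), 1 was higher, *Cd109*, and none of 2 after thinning.

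Interferon response genes were called higher in 10 of 19 cases and lower in none, with a median log2 fold change of 0.96, but this rested on few cells. Their summed level was 13.9, 4.65, 24.3 and 12.9 per 10000 against 4.16, 3.79, 7.33 and 8.28 in other astrocytes, so the adult 5% mouse was nearly level. A single aged 0% cell, which was 1 of the *Nkx2-1* cells, held 143 of the 1086 UMIs, and without it the aged 0% sum was 15.9. It also held 63.3% of those of *Isg15*, the list's gene with the largest difference (2.12 on the log2 scale). *Ifitm3* was more even between mice, at 2.26, 1.14, 2.90 and 2.31 against 0.478, 0.452, 0.667 and 0.818 (log2 fold change 1.69 ± 0.16, edgeR adjusted p = 2.87e-22). Of its UMIs 41.5% were in *Myoc* cells and 25.0% in *Nkx2-1* cells. Without the aged 0% mouse 5 of 18 were called, without the block for mouse 4, and after thinning 0 of 15. Of the 12 MHC class I and peptide loading genes 4 were higher (*Psmb9*, *Psmb8*, *H2-T23* and *B2m*), with a median of 0.45. Without the aged 0% mouse 2 of 12 were called, and after thinning 0 of 8. The *Nkx2-1* cells held 68.4% of the *Psmb9* UMIs.

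Genes of signalling pathways differed singly. *Id3* was at 11.1, 9.19, 11.4 and 14.0 against 4.65, 4.44, 5.38 and 5.66 per 10000, with no overlap (log2 fold change 1.08 ± 0.11, edgeR adjusted p = 1.63e-19). Of the 11 BMP and ID genes, *Smad6*, *Id1*, *Id3* and *Bmpr1a* were higher, and without the *Myoc* cells none was higher and 1 was lower. After thinning 1 of 10 was higher and 1 lower. In gp130 and STAT3 signalling 2 of 9 were higher, namely the gp130 receptor *Il6st* (1.54 ± 0.17, edgeR adjusted p = 9.96e-17) and *Cebpb*, while *Stat3* itself, at 0.58, was under the fold threshold, and after thinning 1 of 7 was higher. In Notch signalling 2 of 9 genes were lower, *Hes5* and *Hes1*, and 2 of 9 also after thinning. The Notch target *Hes5* was at 5.03, 2.62, 2.56 and 5.76 against 6.21, 7.33, 10.0 and 12.0 (log2 fold change −1.25 ± 0.13, edgeR adjusted p = 8.62e-21). It was lower in each mouse, least so in the adult 0% mouse.

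Genes of transmitter uptake and cell contacts were lower in the sums over all Gfap-high cells, which average over subsets that differed. Of 14 genes of glutamate and GABA handling outside the rule, 7 were lower and none higher, with a median log2 fold change of −0.72, while RLE scaling and DESeq2 each gave 6 lower and 1 higher, and thinning 9 of 13 lower. *Slc6a11* was at 5.32, 8.35, 5.80 and 8.04 against 14.8, 12.8, 11.1 and 10.2 per 10000, below every sum of other astrocytes (log2 fold change −0.89 ± 0.12, edgeR adjusted p = 5.77e-12). The glycine transporter *Slc6a9* fell furthest, at 0.364, 0.593, 0.337 and 0.643 against 2.39, 1.89, 1.40 and 1.42 (−1.80 ± 0.20, edgeR adjusted p = 3.22e-17). *Glul*, which makes glutamine from glutamate, was at 26.4 to 31.8 against 27.2 to 28.7 and was not called (−0.05 ± 0.12, edgeR adjusted p = 0.855). In the 48 cells with neither *Myoc* nor *Nkx2-1*, *Glul* was at 44.4, 42.7, 30.9 and 38.1, above other astrocytes in each mouse. In *Myoc* cells *Glul* was at 19.2. *Slc6a11* in those 48 cells was at 6.4, 12.2, 10.1 and 11.2, above other astrocytes in the aged 5% mouse only. In *Myoc* cells *Slc6a11* was at 1.66.

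Among 10 genes of gap junctions and adhesion 5 were lower and 1 higher, with a median of −0.62. RLE scaling and DESeq2 each gave 3 lower and 1 higher, and thinning gave 5 lower and none higher. *Gjb6*, which encodes connexin 30, was at 2.70, 4.79, 4.52 and 4.59 against 7.91, 7.65, 7.47 and 6.87 (log2 fold change −0.92 ± 0.12, edgeR adjusted p = 7.00e-12), and *Cldn10* was lower by −0.99 ± 0.12. In the cells without *Myoc*, *Gjb6* was at 2.88, 5.9, 6.83 and 5.38, still lower in each mouse. *Cldn10* was at 2.10 in *Myoc* cells and 7.44 in the cells without. The higher gene was *Mlc1*, an end-foot membrane protein, at 9.03, 8.70, 7.21 and 8.16 against 4.09 to 4.20 (0.89 ± 0.11, edgeR adjusted p = 3.23e-13). The potassium channel *Kcnk1* was the single call among 12 genes of potassium, water and pH (−1.28 ± 0.13), where 5 of 11 were lower after thinning and 8 of 11 at a threshold of 10 *Gfap* UMIs. At that threshold the median over all 12394 genes tested was −0.369, and 30.8% of all calls were higher. In the cholesterol pathway 5 of 22 were lower (among them *Dhcr7*, *Msmo1*, *Insig1* and *Mvd*), but the median of −0.27 was close to that of all genes, and after thinning 4 of 21 were lower.

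**Figure D4:**
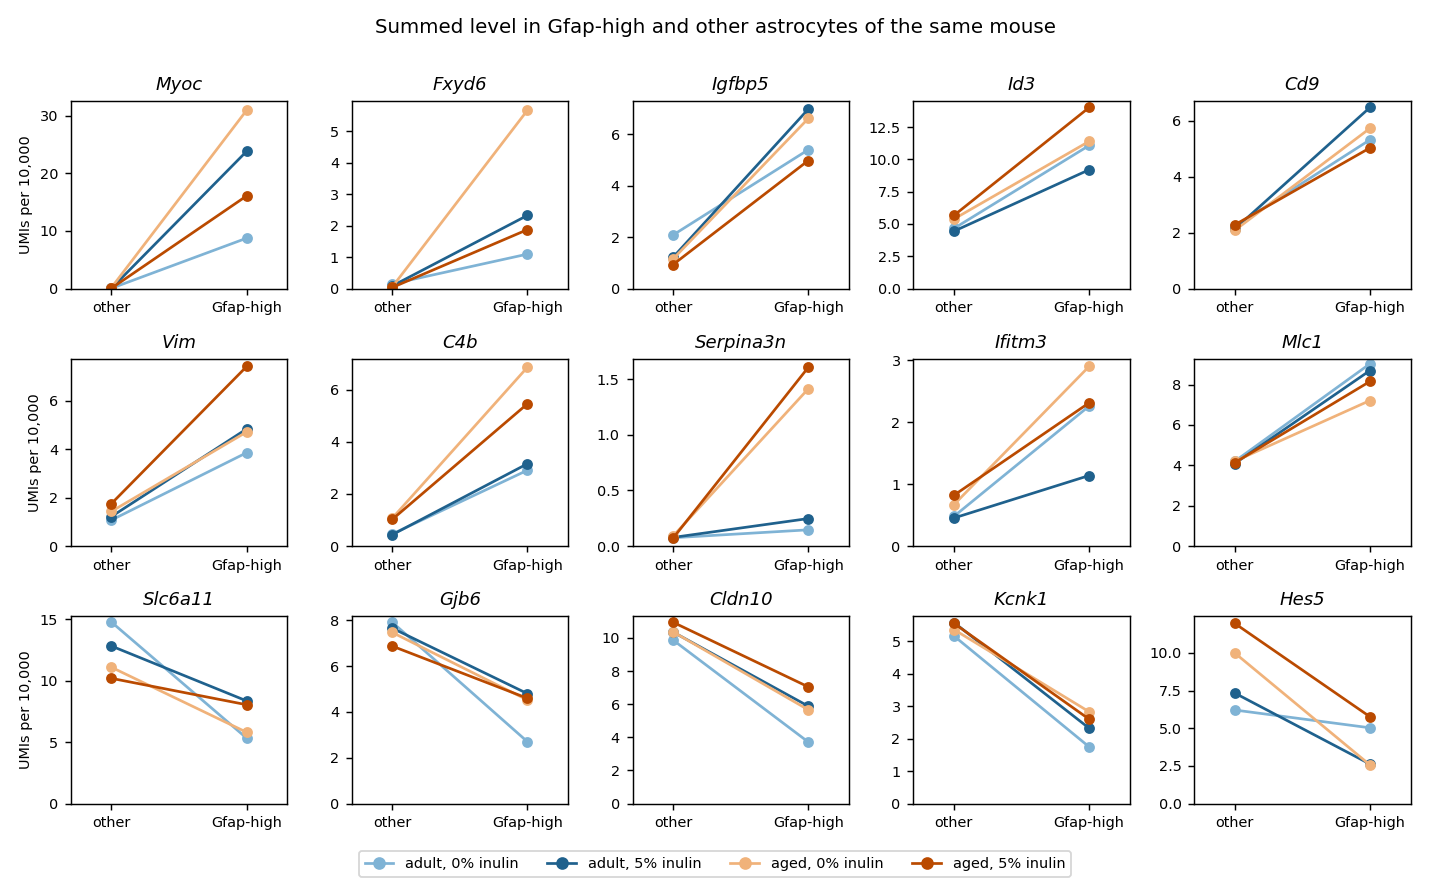
Summed UMIs per 10000 (vertical axes, from 0) of 15 genes in other astrocytes and Gfap-high cells of the same mouse, joined by a line for each of the 4 mice. The first 10 genes were higher in the Gfap-high cells of every mouse and the last 5 were lower.

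The counts of the other lists stand against 4.66% higher and 8.97% lower over all genes tested. In lipid transport 2 of 11 were higher (*Lpl* and *Clu*) and *Abca1* lower, and in extracellular matrix and synapse factors 2 of 18 were higher (*Thbs4* and *Tnc*) and 4 lower. The *Nkx2-1* cells held 90.9% of the *Lpl* UMIs. Of 10 stem cell and radial glia-like genes 4 were higher (among them *Thbs4*, *Lpar1* and *Hopx*) and 1 lower. The *Nkx2-1* cells held 71.4% of the *Lpar1* UMIs. The thrombospondin *Thbs4* was carried at 2 or more UMIs by 11 cells, 9 of them without *Myoc*. Of the 5 telencephalic genes 1 was lower and of the 12 non-telencephalic ones 4 were lower, with none higher in either. Of 4 Bergmann glia genes 2 were higher and 2 lower, and of 9 DNA damage and senescence genes 2 were higher and 2 lower. In glycolysis and lactate 1 of 13 was higher and 1 lower, among 17 immediate early genes 2 were lower, and among 13 chaperones 1 was higher. The iron store *Fth1* (1.21 ± 0.12, edgeR adjusted p = 3.72e-22) was the single call among 8 genes of metals, and 2 of 15 lysosomal genes were higher, *Cd9* and *Psap*. After thinning, none was higher and 2 of 9 were lower in lipid transport, none higher and 6 of 13 lower in matrix and synapse factors, and 1 higher and 2 lower of 6 stem cell and radial glia-like genes. Thinning left 1 of 5 telencephalic and 3 of 12 non-telencephalic genes lower, 1 higher and 1 lower of 4 Bergmann glia genes, of 13 in glycolysis and lactate and of 15 lysosomal genes, and 1 of 7 genes of metals higher. None of 13 immediate early genes, 13 chaperones or 7 DNA damage and senescence genes was called after thinning. Over all 9301 genes tested after thinning, 12.7% of the calls were higher. Some genes stand in more than 1 list.

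The genes with the largest differences downward, at the same minimum of 20 CPM, were rare in Gfap-high cells. *Rpe65*, known as the isomerase of the visual cycle, had 1 UMI in Gfap-high cells and 2010 in other astrocytes, a ratio of levels of 0.0203 (95% counting interval, 0.000513 to 0.113). The AMPA receptor subunit *Gria4* had 2 against 1493 (ratio 0.0546, 0.0066 to 0.197). These intervals pool the UMIs of all mice and leave out the differences between cells and between mice. *Crym*, a thyroid hormone binding protein, had 11 UMIs in a single cell of the adult 5% mouse and none in the other mice, against 1.11 to 1.38 per 10000 in other astrocytes (log2 fold change −3.28). The cell cycle inhibitor *Cdkn1a* (−2.67), *Mgat4c* (−2.63), *Stimate* (−2.61), *Ccn3* (−2.56) and the noncoding *A330076C08Rik* (−2.48) had 5 or 6 UMIs each. The remainder were genes of blood and immune cells, *S100a9* (−3.52), *S100a8* (−3.16), *Retnlg* (−2.56) and the MHC class II invariant chain *Cd74* (−3.93). In other astrocytes *S100a9* was at 2.41, 6.49, 3.31 and 0.494 per 10000, uneven between mice. Of the 1139 lower calls 101 had under 3 UMIs over the 4 Gfap-high sums.

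The comparison of ages asked which genes differed between the Gfap-high cells of aged and adult mice. Of 3186 genes tested 2 were higher in aged mice (0.0628%) and 0 were lower by edgeR's quasi-likelihood test, with 188 at an unadjusted p under 0.05, of which 61 were lower. DESeq2 called 0, with 28 at an unadjusted p under 0.05. In 13.6% of the tested genes both aged sums were above both adult sums, and in 20.9% both were below. The sums rest on 12, 20, 14 and 33 cells.

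*Serpina3n* was 1 of the 2. It had 2, 5, 21 and 55 UMIs in 2, 3, 6 and 15 cells, or 0.146, 0.247, 1.42 and 1.61 per 10000, with both aged mice far above both adult mice (log2 fold change 2.99 ± 0.46, edgeR adjusted p = 0.00544). The ratio of levels was 7.52 (95% counting interval, 3.48 to 19.3). This interval pools the UMIs of the mice of an age and leaves out the differences between cells and between mice. A single cell held 13 of the 21 UMIs of the aged 0% mouse and another held 22 of the 55 of the aged 5% mouse. Without the top cell of each mouse the levels were 0.0786, 0.102, 0.56 and 0.999, so the aged mice were still above the adult mice. In cells without *Myoc* the levels were 0.169, 0.072, 1.90 and 1.77, and in *Myoc* cells 0, 0.631, 0.677 and 1.14, where the adult 5% and aged 0% mice were nearly level. Without the *Myoc* cells the log2 fold change was 3.94 (edgeR adjusted p = 0.00239). Without the aged 5% mouse it was 2.82 and was not called (adjusted p = 0.0922), and DESeq2 gave an adjusted p of 0.753. In other astrocytes it was level, at 0.0743, 0.0773, 0.0894 and 0.0708, and not called (0.10 ± 0.20, edgeR adjusted p = 0.843). The difference between the age effects of the 2 sets was 2.92 ± 0.75 on the log2 scale and did not pass the threshold (edgeR adjusted p = 0.0526).

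*Fbln5*, which encodes the elastic fiber protein fibulin-5 and lies on the minus strand of chromosome 12 from 101746565 to 101819055, was the other. It had 0, 3, 18 and 29 UMIs, or 0, 0.148, 1.21 and 0.848 per 10000, again with both aged mice above both adult mice (log2 fold change 3.51 ± 0.67, edgeR adjusted p = 0.0472; ratio of levels 10.9, 95% counting interval 3.49 to 54.5). The call was lost with RLE scaling (adjusted p = 0.0808), without either aged mouse (0.121 and 0.646), without the *Myoc* cells (0.372) and in DESeq2. The counting interval again leaves out the differences between cells and between mice. Without the top cell of each mouse the levels were 0, 0.103, 0.663 and 0.666. In other astrocytes it was at 0.380, 0.276, 0.444 and 0.431. The difference between the age effects passed the threshold, at 3.11 ± 0.72 (edgeR adjusted p = 0.0104).

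*C4b* was close to the threshold. It had 40, 64, 102 and 187 UMIs, with both aged levels above both adult levels (log2 fold change 1.12 ± 0.23, edgeR adjusted p = 0.0835). In other astrocytes, where 79 genes were higher (0.52%) and 72 lower (0.474%) with age of 15180 tested, or 0.995% in all, it was called higher by 1.24 ± 0.079 (edgeR adjusted p = 1.81e-04). The 2 effects differed by −0.15 ± 0.25 (edgeR adjusted p = 1.00). *Vim* differed by 0.63 ± 0.25 (edgeR adjusted p = 0.796). None of the other listed genes was called with age in Gfap-high cells. In the interferon list 5 of 5 tested genes had positive log2 fold changes with a median of 1.07 and in the MHC class I list 6 of 6 with a median of 0.70, against a median over all genes of 0.0689. The summed interferon level nevertheless overlapped between ages, since the adult 0% mouse (13.9 per 10000) lay above the aged 5% mouse (12.9), and 1 cell took the aged 0% mouse from 15.9 to 24.3. In other astrocytes 12 of 20 and 4 of 14 genes of these lists were called higher. For *Ifit3* the age effects of the 2 sets differed by 0.24 ± 0.35 (edgeR adjusted p = 1.00).

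**Figure D5:**
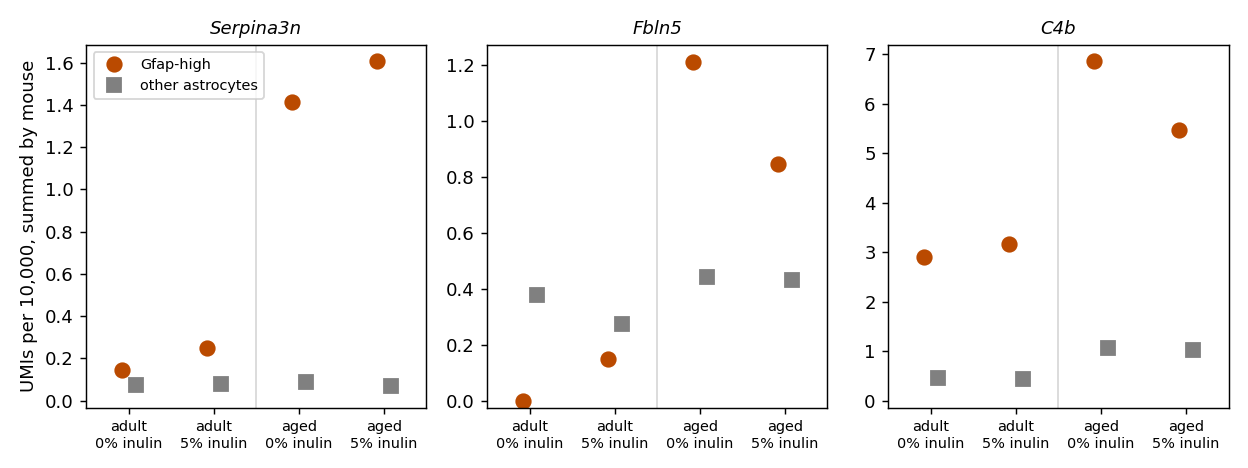
Summed UMIs per 10000 (vertical axes) of *Serpina3n*, *Fbln5* and *C4b* in the Gfap-high cells (circles) and other astrocytes (squares) of each of the 4 mice. In Gfap-high cells both aged mice were above both adult mice for all 3 genes, and in other astrocytes *Serpina3n* stayed between 0.0708 and 0.0894.

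For diet, 5% inulin was compared with 0% across both ages, with age as a covariate. Of 3186 genes tested 4 were higher (0.126%) and 3 lower (0.0942%), or 0.22% in all, with 152 at an unadjusted p under 0.05 (edgeR quasi-likelihood test). DESeq2 called 0, with 10 at an unadjusted p under 0.05. Single cells held much of the UMIs of several of the 7. *Hbb-bs* (log2 fold change 3.86) had 1, 15, 5 and 174 UMIs, of which 161 were in the hemoglobin-rich cell. *Crip1* (2.19) had 8, 28, 10 and 147, of which 125 were in the smooth muscle doublet, and without the doublets it was at 0.71 and not called (edgeR adjusted p = 0.921). *Ifit3b* (−2.07) had 9, 5, 41 and 18, of which 30 were in 1 aged 0% cell.

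*Agt* was the call carried by the most cells. It had 68, 234, 93 and 422 UMIs, or 4.95, 11.6, 6.27 and 12.3 per 10000, in 7, 13, 8 and 22 cells, so that both mice on 5% inulin were above both on 0% (log2 fold change 1.15 ± 0.22, edgeR adjusted p = 0.00501). Without the top cell of each mouse the levels were 2.83, 7.69, 3.76 and 9.05, with the same order of diets. In other astrocytes *Agt* was at 9.84, 8.19, 7.86 and 8.17, with the diets overlapping. The call was lost with a threshold of 10 *Gfap* UMIs, with *Gfap* counted per 10000 UMIs, with stricter limits on other cell types and in DESeq2. *Igsf1*, an immunoglobulin superfamily protein, had 2, 29, 1 and 22 UMIs, 17 of them in 1 cell (3.26 ± 0.64, edgeR adjusted p = 0.0057). *Ifit3* had 27, 5, 77 and 44 UMIs, or 1.97, 0.247, 5.19 and 1.29 per 10000, with both 0% mice above both 5% mice (−2.17 ± 0.32, edgeR adjusted p = 1.36e-04). In the aged 0% mouse 2 cells held 63 of the 77 *Ifit3* UMIs, and without the top 2 cells of each mouse the levels were 0.694, 0, 1.07 and 0.946, with the diets overlapping. *Ucma* had 43, 1, 26 and 18 UMIs, 75.0% of them in the 6 *Nkx2-1* cells (−2.73 ± 0.45, edgeR adjusted p = 5.9e-04).

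A last test asked whether age effects differed between Gfap-high and other astrocytes. The difference passed the threshold in 25 of 14008 genes (0.178%), with 19 more positive (0.136%) and 6 more negative (0.0428%) in Gfap-high cells, and 483 at an unadjusted p under 0.05. DESeq2 called 0, with 124 at an unadjusted p under 0.05. The genes with the largest differences were those of the smooth muscle doublet and of single cells, and without the aged 5% mouse 2 genes were called. Of the listed genes 3 were called, *Fbln5* and *Notch3* with a more positive and *Apod* with a more negative age effect in Gfap-high cells. Of the 123 *Apod* UMIs 112 were in 1 adult 0% cell, and of the 25 *Notch3* UMIs 9 were in the smooth muscle doublet. The *Fbln5* UMIs were spread over 16 cells, with at most 9 in 1 cell.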

How the data were processed

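Brain cells of 4 male mice were measured as 10x Genomics 3′ single-cell libraries, 1 per mouse. The authors aligned and counted reads with Cell Ranger 3.1.0 against a filtered GRCm38 reference (Ensembl annotation), and deposited the raw UMI counts per gene and barcode, without normalization, as filtered matrices of 55573 features. The groups (adult or aged) and the diets (low or high fiber) came from the sample labels. The percentages of inulin and cellulose, the starting ages and the weeks on diet are those of the study's methods. The rule for the cells, and all gene lists, were chosen with earlier results of these data known.

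Scrublet (in scanpy 1.11.5) was run per library at an expected doublet rate of 8%, and its calls were kept in the main results. UMI counts were summed per mouse and set of cells, filtered with filterByExpr, scaled by TMM and tested with edgeR 4.0.16 (quasi-likelihood) in R 4.3.3, with mouse as a block between sets of cells and age as a covariate for diet. p-values were adjusted over all genes tested by the Benjamini-Hochberg method, and genes were called at a fold change over 1.5 with an adjusted p below 0.05. With 1 mouse per combination, p-values rest on these 4 mice, with the spread of each gene estimated in part from all genes together. Genes carried mostly by 1 cell of 1 mouse, such as *Hbb-bs* and *Crip1*, could still be called. The fits were tested first on simulated sums that had the same spread for every gene. The simulation held no genes carried by single cells, so it does not cover such genes. Levels are UMIs per 10000. Shares have exact 95% binomial intervals from scipy 1.17.1, and shares were compared by exact permutation tests. Log2 fold changes are given ± SE.

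Named genes were up to 12 called genes per direction by size, outside the rule, with a mean of at least 20 CPM and one sign in all mice (or no overlap of ages), up to 8 for diet and for the difference of age effects, and, from each of 26 lists, the called gene with the largest change in each direction and the 3 with the highest level. Other genes named, and the subsets by *Myoc* and *Nkx2-1*, were chosen after their values were seen. The alternatives were DESeq2 1.42.0, RLE scaling, no filter, an adjusted p alone, thinning to 2000 UMIs (3 Gfap-high cells were too shallow), other thresholds of *Gfap*, stricter gates (at most 3 oligodendrocyte and 2 endothelial UMIs and 5 microglial per 10000), cells with at most 1 *Agt* UMI, no doublet calls, no block or other covariates, and leaving out each mouse. Leaving out *Myoc* cells, keeping genes of at least 20 CPM, and levels without the cells with the most UMIs of a gene were added after the data were seen. Promoters came from RefSeq. The deposited files were read in full, no cell annotation was used, and a few genes are not reported here.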

Additional observations from a re-analysis of the deposited data

Results flagged for a closer look

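In 9 genes the age effect in Gfap-high cells differed from that in other astrocytes by the interaction term of the edgeR fit over the summed counts, among those that the rule for named genes picked or that age had called. Of these, 6 were smooth muscle or mural genes with UMIs in the aged 5% inulin doublet. *Rgs4* differed by 11.56 on the log2 scale, with 0, 0, 0 and 29 UMIs in the 4 mice, 26 of them in the doublet, so that the fitted value is no bound. *Acta2* differed by 6.52 (0, 2, 1 and 118 UMIs), *Myh11* by 5.19 (0, 2, 0 and 37), *Tagln* by 5.00 (5, 1, 2 and 127), *Rgs5* by 4.91 (1, 1, 1 and 56) and *Myl9* by 4.75 (1, 3, 1 and 81). *Hba-a2*, a hemoglobin gene, differed by 5.08 (1, 3, 0 and 183 UMIs, 181 of them in 1 cell). *Crym* differed by −9.86 and had 11 UMIs in 1 adult 5% cell and none in the other mice. *Fbln5* differed by 3.11, with 0, 3, 18 and 29 UMIs in 16 cells.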

How the results depend on the processing

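The comparison of Gfap-high with other astrocytes gave 1731 calls, and 940 with DESeq2, 561 after thinning to 2000 UMIs, 986 with at most 1 *Agt* UMI and 926 without the *Myoc* cells (added after seeing the data). The 561 were among 9301 genes tested, and 12.7% of them were higher. Leaving out a mouse gave 1274 to 1540. Without the block for mouse the count was 1781. The age comparison gave 2 calls, and 0 with DESeq2, after thinning (440 genes tested) and at 10 *Gfap* UMIs. It gave 1 with RLE scaling, at most 1 *Agt* UMI and without the *Myoc* cells, 4 with stricter gates, 5 with diet as a covariate, 7 with *Gfap* per 10000 UMIs, 34 with no filter, and 14 to 47 on leaving out a mouse, where the lone sample of an age is assumed to vary like the pair. The diet comparison gave 7 calls, and 0 with DESeq2 and at 10 *Gfap* UMIs, 1 with stricter gates, 12 without the doublets and 31 with no filter, and could not be fitted without a mouse. The difference of age effects gave 25, and 0 with DESeq2, 1 after thinning, 10 without the doublets, 13 at 10 *Gfap* UMIs, 14 with stricter gates or at most 1 *Agt* UMI, and 2 to 28 on leaving out a mouse. There *Myh11* reversed to −7.22 and *Tagln* to −1.22 without the doublets, *Hba-a2* to −8.58 at 10 *Gfap* UMIs, and *Myh11* to −6.28 and *Hba-a2* to −7.83 without the aged 5% mouse, where the span on leaving out a mouse was −7.83 to 6.19 for *Hba-a2* and −6.28 to 12.86 for *Myh11*. The cause of these changes was not tested, beyond the fewer cells and genes that some alternatives left. For named genes 548 values kept direction and side of the threshold, 86 lost the call, 7 gained it and 5 reversed. The age difference in share was 0.342 to 2.06 points, and that of diet 0.145 to 1.99, on leaving out a mouse. Depth limits the age and diet comparisons, since the smallest sum came from 12 cells.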
